A study of Mus musculus with 10 samples.

Results

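Gpr83, Izumo1r, Nrp1 and Cd83 encode cell surface proteins of regulatory T (Treg) cells, and their transcripts were followed over 10 microarrays of lymph node CD4+ T cells. The 4 genes were given by name. Each was represented by the probe set with a transcript cluster (TC) identifier that the platform annotation gives to it, under its current or an older symbol such as Folr4 for Izumo1r, and that had the highest mean over the 10 arrays. A probe set naming 1 gene was found for 3 of the 4 genes, among 30738 genes that a probe set names alone. The only TC probe set of Nrp1, TC0800001594.mm.1, is annotated with Nrp1 and with the microRNA gene Mir1903, which lies inside Nrp1. It is therefore given by its identifier, and its signal is attributed to neither gene.

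Gpr83 is a G protein-coupled receptor whose transcript is enriched in mouse Treg cells, and peptides derived from proSAAS have been described as its ligands. Izumo1r, also called folate receptor 4 or Juno, is a lipid-anchored relative of the folate receptors that marks mouse Treg cells and anergic CD4+ T cells, and on the egg it binds the sperm protein Izumo1. Neuropilin-1, the product of Nrp1, is a coreceptor of class 3 semaphorins and of vascular endothelial growth factor (VEGF) that is used to recognise thymus-derived Treg cells in mice. Cd83 is an immunoglobulin superfamily member that opposes the ubiquitin ligase encoded by Marchf1 and so keeps MHC class II molecules and Cd86 at the surface of antigen-presenting cells.

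Cells came from untreated female C57BL/6 mice aged 6 to 8 weeks, and in every group the Foxp3 gene, whose product defines Treg cells, carried a reporter of red fluorescent protein (RFP). Il2ramut/mut mice, which bear a point mutation in CD25, the alpha chain of the IL-2 receptor, were compared with wild type (WT) mice. Treg cells were sorted as RFP-positive and conventional T (Tconv) cells as RFP-negative, and per the study's methods the Tconv cells were also sorted as naive, CD44 low and CD25-negative. RNA of 50000 cells per array was hybridised to Affymetrix Mouse Transcriptome Array 1.0 arrays, with 3 Treg and 2 Tconv arrays per genotype. The reporter and the background strain were common to all groups, and the Il2ramut/mut mice carry the mutation in all their cells, so Treg and Tconv cells developed under the same genotype. Signals are on the log2 scale, and a difference of 1 is a doubling. Array medians lay between 4.97 and 5.13, and 40.3% to 51.3% of the probe sets of an array were above its background, taken as the 95th percentile of 23 control probe sets that match no mouse transcript (4.98 to 5.54). Il2ra was at 14.92 to 15.31 on Treg arrays and at 6.04 to 6.48 on Tconv arrays. Because Il2ra encodes CD25, the CD25-negative sort of the Tconv cells selected for this gap. The pan-T-cell gene Cd3e lay between 15.66 and 16.06 on all 10 arrays, while Cd4 lay between 12.62 and 13.63. Foxp3 was not read, because no probe set names it alone.

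The RefSeq sequences before the annotated starts of these genes are shown because Gpr83 and Izumo1r lie side by side and were both high in the same cells, with that of Nrp1 for comparison. The 250 bases upstream of each start are given 5′ to 3′ on the gene's strand in build GRCm38.p6, at chr9:14859960-14860209 (plus strand) for Gpr83, chr9:14903768-14904017 (minus strand) for Izumo1r and chr8:128358823-128359072 (plus strand) for Nrp1.
Gpr83: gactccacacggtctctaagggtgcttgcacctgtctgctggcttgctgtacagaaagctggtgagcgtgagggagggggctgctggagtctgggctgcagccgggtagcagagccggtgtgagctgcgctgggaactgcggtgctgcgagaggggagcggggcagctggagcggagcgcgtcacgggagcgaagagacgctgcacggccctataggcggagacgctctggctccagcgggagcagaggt
Izumo1r: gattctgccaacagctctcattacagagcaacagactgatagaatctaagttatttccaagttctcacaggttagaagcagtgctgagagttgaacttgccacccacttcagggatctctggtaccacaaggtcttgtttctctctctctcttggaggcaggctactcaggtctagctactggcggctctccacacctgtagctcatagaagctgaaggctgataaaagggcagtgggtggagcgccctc
Nrp1: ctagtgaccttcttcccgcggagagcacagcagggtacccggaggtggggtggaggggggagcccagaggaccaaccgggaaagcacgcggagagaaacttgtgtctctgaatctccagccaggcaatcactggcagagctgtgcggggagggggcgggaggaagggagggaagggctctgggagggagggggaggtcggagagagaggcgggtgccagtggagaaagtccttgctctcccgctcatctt
The windows of Gpr83 and Nrp1 were rich in G and C (66.8% and 64.4%), against a median of 52.4% over 32851 promoters, while that of Izumo1r was at 50.0%. Both strands were searched for a forkhead motif (GTAAACA, in 3.17% of the promoters), a STAT motif (TTCNNNGAA, in 7.02%), an NF-kB motif (GGGACTTTC, in 0.289%), an NFAT core (GGAAAA, in 20.4%) and the core of a glucocorticoid receptor site (AGAACA, in 16.1%). These motifs can overlap one another, and 0 of the 3 windows held any of them, so no base is set in capitals. This says only that those letters are not in these windows. For Cd83 no sequence was used here.

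All 4 probe sets were higher in Treg than in Tconv cells in both genotypes. The probe set of Nrp1 and Mir1903 differed most, by 8.02 on the log2 scale in WT cells, followed by Gpr83 at 4.57, Izumo1r at 3.75 and Cd83 at 1.38. Limma, with Benjamini-Hochberg adjustment over all 65956 probe sets, called 4 of 4 in WT and 4 of 4 in Il2ramut/mut cells at an adjusted p under 0.05. Over all probe sets it called 7.89% in WT cells, 4.37% as higher in Treg cells, and 11.3% in Il2ramut/mut cells, 5.43% as higher in Treg cells. In RNA from sorted cells, a smaller share of cells with a transcript and less transcript per cell cannot be told apart. Per the methods only the Tconv cells were sorted as naive. Cell type and naive state therefore cannot be told apart in any Treg against Tconv difference here. This holds for the gene lists below, the anergy, follicular, NF-kB and early response genes among them.

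Gpr83 (probe set TC0900000113.mm.1) read 11.51, 11.56 and 11.54 on the WT Treg arrays and 11.06, 10.94 and 11.00 on the Il2ramut/mut Treg arrays. On Tconv arrays it read 7.22 and 6.70 in WT and 7.30 and 6.44 in Il2ramut/mut cells. Every Treg array was thus above every Tconv array, by at least 4.29 in WT and 3.63 in Il2ramut/mut mice, and all 10 values were above background. Treg cells held 23.8-fold more in WT mice (4.57 ± 0.23, SE, adjusted p = 1.13e-06) and 17.4-fold more in Il2ramut/mut mice (4.12 ± 0.23, adjusted p = 1.86e-06). The gene was steady among Treg replicates, with an SD of 0.024 (WT) and 0.061 (Il2ramut/mut, n = 3 each), and spread widely among Tconv replicates, with an SD of 0.37 (WT) and 0.61 (Il2ramut/mut, n = 2 each). The Treg genes Il2ra and Ikzf2, which encodes the transcription factor Helios, lay closer together on these arrays: the 2 WT Tconv arrays were at 6.38 and 6.48 for Il2ra and at 5.77 and 5.62 for Ikzf2, and the 2 Il2ramut/mut Tconv arrays at 6.04 and 6.09 and at 5.56 and 5.34. Both are limited comparisons: Il2ra was selected against by the CD25-negative sort, and Ikzf2 lay near the background of these arrays (5.07 to 5.35). Ikzf2, Izumo1r and Cd83, like Gpr83, were lower on the second Tconv array of each genotype. TC0800001594.mm.1 was lower there in WT (5.67 and 5.62) and higher in Il2ramut/mut cells (5.65 and 6.02). The 2 WT Tconv arrays were 0.53 apart for Izumo1r and 0.52 apart for Gpr83. The 2 Il2ramut/mut Tconv arrays were 0.088 and 0.86 apart in that order. The cause of the Gpr83 spread was not tested.

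Izumo1r (probe set TC0900001779.mm.1) gave a bright signal in both cell types. It read 15.89, 15.92 and 16.00 on WT Treg arrays, 15.64, 15.75 and 15.42 on Il2ramut/mut Treg arrays, 12.45 and 11.92 on WT Tconv arrays, and 12.21 and 12.12 on Il2ramut/mut Tconv arrays. The lowest Treg array exceeded the highest Tconv array by 3.44 in WT and 3.21 in Il2ramut/mut mice, and the Tconv signals were well above the background of their arrays. The Treg excess was 13.5-fold in WT (3.75 ± 0.15, adjusted p = 3.18e-07) and 10.8-fold in Il2ramut/mut cells (3.44 ± 0.15, adjusted p = 5.08e-07). Its order over the groups was WT Treg, Il2ramut/mut Treg, and then the 2 Tconv groups, whose arrays overlapped.

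TC0800001594.mm.1, the probe set of Nrp1 and Mir1903, was the most cell type restricted of the 4. It read 13.63, 13.79 and 13.57 on WT Treg arrays and 13.61, 13.78 and 13.60 on Il2ramut/mut Treg arrays. On Tconv arrays it read 5.67 and 5.62 in WT and 5.65 and 6.02 in Il2ramut/mut cells, close to but above background on all 4. The Treg excess was 259.3-fold in WT (8.02 ± 0.13, adjusted p = 1.36e-09) and 227.4-fold in Il2ramut/mut cells (7.83 ± 0.13, adjusted p = 1.75e-09). Among the 27324 probe sets above background on all WT arrays, TC0800001594.mm.1 had the 2nd largest Treg excess, while Gpr83 stood at place 78, Izumo1r at 129 and Cd83 at 775. In Il2ramut/mut cells the places of TC0800001594.mm.1, Gpr83 and Izumo1r were 4, 109 and 163 of 25416, and Cd83 had no place because 1 Tconv array was at background.

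Cd83 (probe set TC1300000498.mm.1) was dim. It read 6.72, 6.63 and 6.44 on WT Treg arrays, 6.71, 6.84 and 6.40 on Il2ramut/mut Treg arrays, 5.25 and 5.19 on WT Tconv arrays, and 5.37 and 4.87 on Il2ramut/mut Tconv arrays, of which 1 of 2 lay above background. The lowest Treg array exceeded the highest Tconv array by 1.20 in WT and 1.03 in Il2ramut/mut mice. The Treg excess was 2.60-fold in WT (1.38 ± 0.17, adjusted p = 0.000713) and 2.89-fold in Il2ramut/mut cells (1.53 ± 0.17, adjusted p = 0.00028), or 2.52-fold in the latter with the 1 Tconv array below background taken at its background. A second probe set annotated with Cd83 alone, TSUnmapped00000047.mm.1, which has no TC identifier, gave another size of the same direction. It read 8.60, 8.60 and 8.21 on WT Treg arrays, 8.57, 8.98 and 8.54 on Il2ramut/mut Treg arrays, and between 4.62 and 4.98 on the 4 Tconv arrays, where it was above background on 0 of 4. By this probe set Cd83 was at least 10.1-fold higher in WT Treg cells (difference 3.67 ± 0.19, adjusted p = 1.37e-06) and at least 10.5-fold higher in Il2ramut/mut Treg cells (3.91 ± 0.19, adjusted p = 7.57e-07), where "at least" takes a Tconv array below its background at that background. The size of the Cd83 excess therefore depended on the probe set.

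An exact two-sided permutation test of each gene alone gave p = 0.1 for every one of these Treg against Tconv differences, which is the smallest value that 3 arrays against 2 can give. The share of all probe sets whose Treg and Tconv arrays were likewise separate was not counted, so the gaps above are description only. The adjusted p-values above come from the limma fit across all probe sets, whose spread is shared by the 4 groups.

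**Figure D1:**
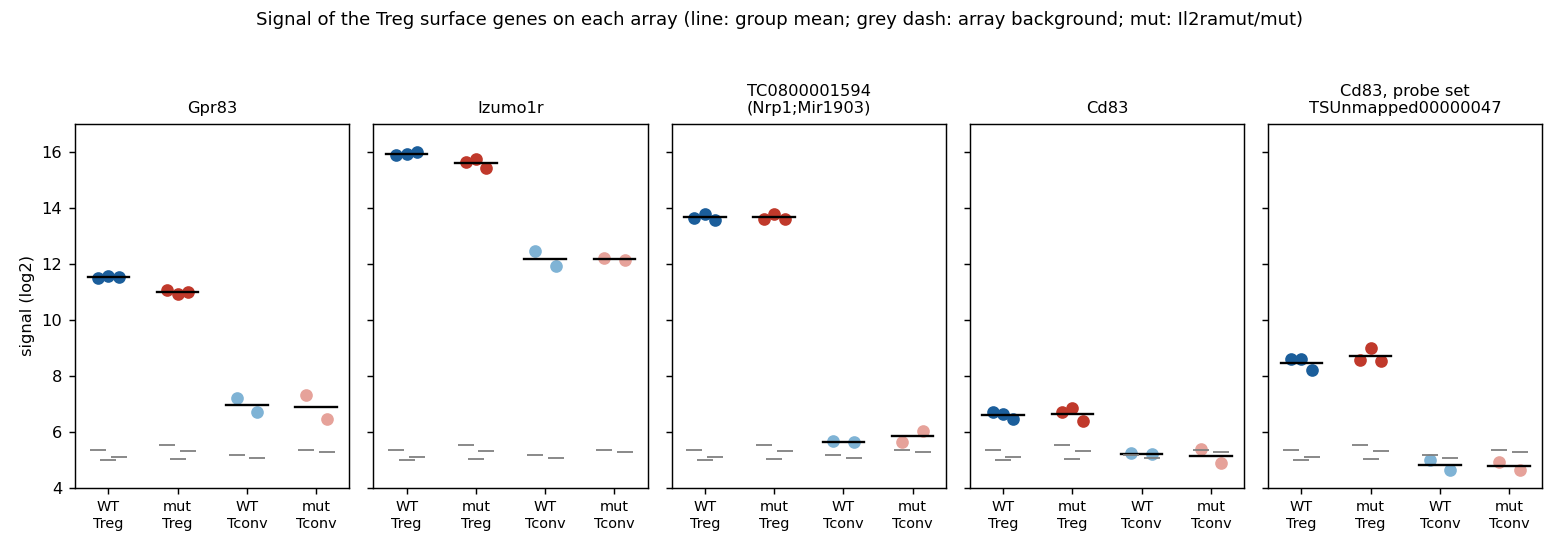
Log2 signal (y axis) of the 4 genes and of the second Cd83 probe set on each of the 10 arrays, with 1 point per array, a black line at the group mean and a grey dash at the background of each array. Treg arrays sit above Tconv arrays in every panel, from 6.40 to 6.84 against 4.87 to 5.37 for Cd83, and the Gpr83 values of the Il2ramut/mut Treg arrays (10.94 to 11.06) lie below those of the WT Treg arrays (11.51 to 11.56).

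Beside other surface genes of Treg cells the 4 genes covered much of the range. Of 26 such genes measured, 23 were higher and 1 lower in WT Treg than in WT Tconv cells, with a median difference of 3.58 against -0.0762 over all probe sets, and the counts were the same in Il2ramut/mut cells (median 4.24 against -0.0795). The share called higher over all probe sets was 4.37% in WT and 5.43% in Il2ramut/mut cells. Both medians were the same, 3.58 and 4.24, with the 5 genes at background on every Tconv array taken at their lower bounds. The lowest p-values belonged to Il2ra (8.55), the inhibitory receptor Ctla4 (7.51), Lrrc32, which presents latent TGF-beta (at least 86.9-fold), the integrin Itgae (7.63), the decoy receptor Il1r2 (at least 67.5-fold) and the costimulatory receptor Tnfrsf4 (5.75), all higher in WT Treg cells, with Lrrc32 and Il1r2 at background on every Tconv array. For Il2ra the CD25-negative sort of the Tconv cells selected for this difference. Genes of the list that were not called in WT cells were Cd5 (0.12, adjusted p = 0.553) and Cd6 (-0.05, adjusted p = 0.834), and Ly6c1 was lower in Treg cells (-1.40, adjusted p = 0.013).

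**Figure D2:**
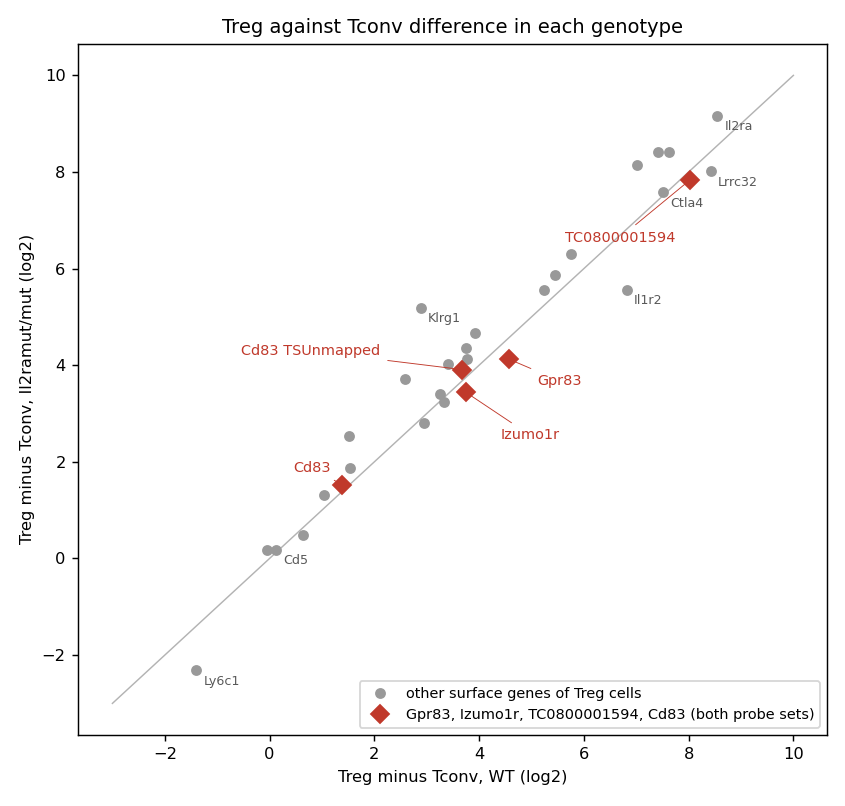
Treg minus Tconv difference (log2) in WT cells (x axis) and in Il2ramut/mut cells (y axis) for the 4 genes with the second Cd83 probe set (red diamonds) and for 26 other surface genes of Treg cells (grey points), with the line of equal differences. Where a gene was at background on every Tconv array (Lrrc32, Il1r2 and the second Cd83 probe set among those named) its point is the fitted difference, not a bound. The red points run from Cd83 (1.38 and 1.53) to TC0800001594.mm.1 (8.02 and 7.83), while Klrg1 (2.89 and 5.19) lies farther from the line.

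The question of the series is what a weaker IL-2 signal does to these cells. In Treg cells, 0 of the 4 probe sets were called between genotypes by limma, against 0.373% of all probe sets, and 2 of 4 had an unadjusted p under 0.05, as did 6519 of the 65956. Mean Gpr83 signal was 11.54 ± 0.024 for WT and 11.00 ± 0.061 for Il2ramut/mut Treg cells (SD, n = 3 each), a difference of -0.54 ± 0.20 (95% interval -0.99 to -0.087, unadjusted p = 0.0242, adjusted p = 0.425), or 1.453-fold. All 3 Il2ramut/mut Treg arrays lay below all 3 WT arrays, which held for 8.51% of all probe sets, and the exact two-sided permutation p was 0.1, the smallest for 3 against 3. The SE of the shared fit includes the wide Tconv spread of Gpr83. When only the 6 Treg arrays were fitted, its SE was 0.075 and its adjusted p was 0.0586, still short of the threshold.

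Mean Izumo1r signal was 15.94 ± 0.057 for WT and 15.60 ± 0.17 for Il2ramut/mut Treg cells, a difference of -0.33 ± 0.14 (95% interval -0.64 to -0.024, unadjusted p = 0.0375, adjusted p = 0.472). Its Treg groups also did not overlap (exact p = 0.1), and with the Treg arrays alone the adjusted p was 0.319. The remaining genes had values of both genotypes interleaved. For TC0800001594.mm.1 the means were 13.67 ± 0.12 (WT) and 13.66 ± 0.11 (Il2ramut/mut) in Treg cells, a difference of -0.0029 ± 0.11 whose 95% interval ran from -0.26 to 0.25 (adjusted p = 0.997). Cd83 averaged 6.60 ± 0.14 and 6.65 ± 0.22, a difference of 0.053 ± 0.15 with an interval of -0.29 to 0.40 (adjusted p = 0.952), and its second probe set differed by 0.23 ± 0.17 (adjusted p = 0.723). For the receptor Gpr83 and for Izumo1r the intervals thus left out 0 without multiple testing adjustment, and for TC0800001594.mm.1 and Cd83 they held 0.

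In Tconv cells, limma called 0 of the 4 probe sets between genotypes, against 0.00303% of all probe sets (2 of 65956, with 4674 at an unadjusted p under 0.05). Differences were -0.088 ± 0.25 for Gpr83 (adjusted p = 0.977), -0.018 ± 0.17 for Izumo1r (adjusted p = 0.994), 0.19 ± 0.14 for TC0800001594.mm.1 (adjusted p = 0.851) and -0.098 ± 0.19 for Cd83 (adjusted p = 0.962). With 2 arrays per group these intervals are wide, reaching from -0.64 to 0.47 for Gpr83. The difference between the Treg and the Tconv genotype effect was -0.45 ± 0.32 for Gpr83 (adjusted p = 0.927), -0.32 ± 0.22 for Izumo1r (adjusted p = 0.921), -0.19 ± 0.18 for TC0800001594.mm.1 (adjusted p = 0.968) and 0.15 ± 0.24 for Cd83 (adjusted p = 0.995), so 0 of 4 were called by limma, against 0.00152% of all probe sets (1 of 65956, with 4301 at an unadjusted p under 0.05). No genotype effect was shown to differ between the cell types for these genes.

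**Figure D3:**
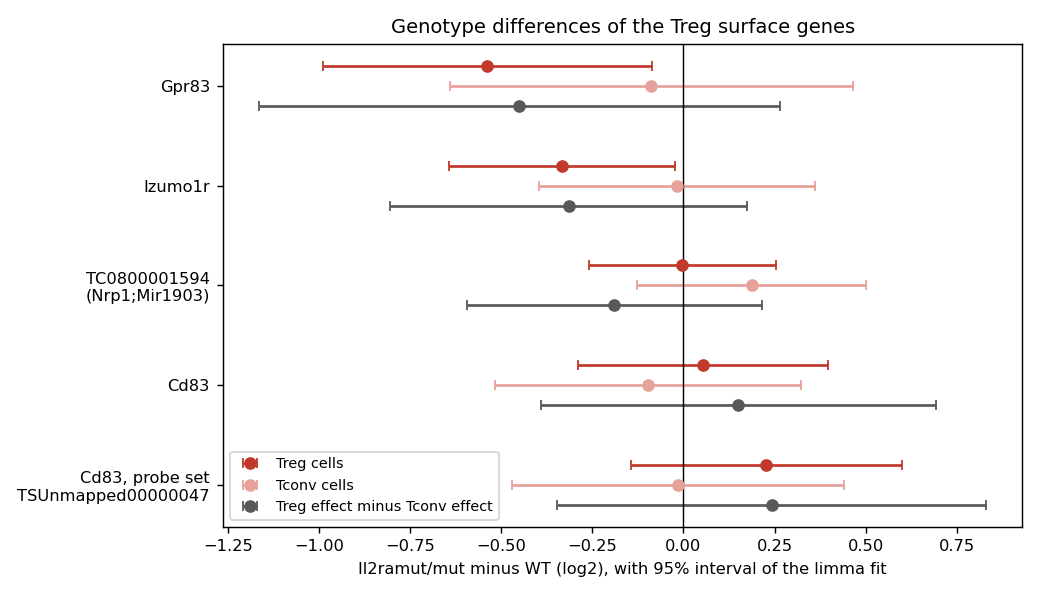
Difference between Il2ramut/mut and WT (log2, x axis) for each gene in Treg cells, in Tconv cells and as the Treg effect minus the Tconv effect, with points at the limma estimate and bars for its 95% interval. The Treg intervals of Gpr83 (-0.99 to -0.087) and Izumo1r (-0.64 to -0.024) lie below 0 before adjustment for multiple tests, and all the others cross it.

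Several other surface genes of Treg cells were called between the same Treg arrays. Klrg1, an inhibitory receptor that marks effector Treg cells, the IL-10 receptor chain Il10ra and Tigit, which restrains T cells upon binding CD155, were higher in Il2ramut/mut cells by 2.32 (adjusted p = 0.0041), 0.99 (adjusted p = 0.0243) and 1.01 (adjusted p = 0.0462) in that order, while Il1r2 was lower (-1.05, adjusted p = 0.0284). The rest of the 26 were not called. Among transcription factors of Treg cells 11 of 18 were higher and 4 lower in WT Treg cells. Over all probe sets 7.89% were called there, 4.37% as higher, and 0.373% between Treg genotypes. The higher ones were led by Ikzf2 (7.94), Ikzf4 (4.03) and Irf4 (3.92), with Prdm1 (1.96) also higher and Satb1 (-2.66) and Lef1 (-2.58) lower. Prdm1, which encodes Blimp-1, was the 1 transcription factor called between genotypes (0.87, adjusted p = 0.016). Of the 11 genes that the lists named here held as called between Treg genotypes, 6 stayed called when only the Treg arrays were fitted, and Cd80 and Klrg1 stayed called in all 12 limma alternatives. The other 9 were called in only 2 to 7 of the 12, with Cd9 in 2, Sgk1 in 3 and Maf, Plxnd1 and Tigit in 4. Those lost with the Treg arrays alone were Cd9 (adjusted p = 0.112), Il1r2 (0.0801), Maf (0.0837), Plxnd1 (0.117) and Sgk1 (0.0696).

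For Gpr83, the ligand precursor and a second receptor of proSAAS peptides were read. Pcsk1n, which encodes proSAAS, was at 5.01 to 5.30 on the 10 arrays, near background, and did not pass the test between cell types (-0.16 in WT, adjusted p = 0.437). Gpr171, the second receptor, was at 7.80 to 8.17 on WT Treg and 8.24 to 8.54 on WT Tconv arrays (-0.40, adjusted p = 0.168) and was lower in Il2ramut/mut Treg than Tconv cells (-0.71, adjusted p = 0.0132). Gpr83 is also known as a glucocorticoid-induced receptor. Of 10 glucocorticoid response genes, 2 were higher and 1 lower in WT Treg cells. Over all probe sets 7.89% were called there, 4.37% as higher. Higher were the phosphatase Dusp1 (2.92, adjusted p = 0.000357) and the transcription factor Klf9 (at least 1.38-fold, adjusted p = 0.0239). Lower was the kinase Sgk1 (-2.21, adjusted p = 1.29e-06). For Dusp1 the WT Tconv arrays lay far apart, at 7.61 and 9.03. In Il2ramut/mut mice mean Dusp1 was 11.49 in Treg and 11.11 in Tconv cells. The interaction of genotype and cell type was called for 0 of the 10 genes, so a Dusp1 excess that differs between genotypes was not shown. Sgk1 was the 1 called between Treg genotypes, at 6.02 to 6.22 in WT and 6.62 to 6.79 in Il2ramut/mut cells (0.62 ± 0.099, adjusted p = 0.039).

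For Izumo1r, 6 relatives and partners were read. Folr1, Folr2 and Izumo3 were above background on 0 of 10 arrays, and 0 of 6 were called between WT Treg and Tconv cells. Over all probe sets 7.89% were called there, 4.37% as higher in Treg cells, and 0.373% between Treg genotypes. The same shares stand beside the counts of the folate, anergy and follicular genes below. Cd9, a tetraspanin that the egg needs, like Izumo1r, to fuse with sperm, was lower in Il2ramut/mut than in WT Treg cells, at 7.43 ± 0.17 against 8.02 ± 0.079 (-0.59 ± 0.10, adjusted p = 0.0496). Of 11 folate carriers and enzymes, 3 were higher in WT Treg cells and 0 lower: Tyms, thymidylate synthase (1.62, adjusted p = 4.87e-05), Ggh, gamma-glutamyl hydrolase (1.14, adjusted p = 0.000581), and the reduced folate carrier Slc19a1 (0.37, adjusted p = 0.0484). The ecto-enzyme Nt5e, which together with Izumo1r marks anergic CD4+ T cells, was at 14.43 to 14.54 on WT Treg arrays and 8.94 to 9.11 on WT Tconv arrays (5.45, adjusted p = 1.57e-08). Of 16 anergy genes, Nt5e among them, 8 were higher and 2 lower in WT Treg cells, with Tbc1d4 (2.96), Egr2 (1.81) and Nr4a1 (1.67) higher and Ikzf1 (-1.46) and Dgka (adjusted p = 0.000108) lower, and 0 were called between Treg genotypes. Among 16 genes of follicular helper and follicular regulatory cells, which carry Izumo1r in mice, 11 were higher and 1 lower, with Maf (5.83), Pdcd1 (4.42), Cxcr5 (3.62), Icos (3.41), Cd200 (2.95) and Sh2d1a (1.64) of lowest p. Between Treg genotypes Maf was higher (0.72, adjusted p = 0.0355) and the inhibitory receptor Btla lower (-0.75, adjusted p = 0.0152).

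For neuropilin-1, ligands and coreceptors were read beside TC0800001594.mm.1. Of 11 semaphorin and VEGF ligand genes, 0 were called between cell types in either genotype, and Sema3a, Sema3b, Sema3c, Sema3e, Sema3f and Sema3g were above background on 0 of 10 arrays, whereas Vegfb was above it on all. Of 17 genes listed as coreceptors and signalling partners, plexins among them, 5 were higher and 1 lower in WT Treg cells. Over all probe sets 7.89% were called in WT cells, 4.37% as higher in Treg cells. The median of the 17 differences was -0.0129, against -0.0762 over all probe sets, and 8 were positive. Plexins, which transmit semaphorin signals, made up 4 of the 5. They were Plxnc1 (2.69 ± 0.18, adjusted p = 9.83e-06), Plxnd1 (1.35 ± 0.17, adjusted p = 0.000675), Plxna1 (0.63, adjusted p = 0.012) and Plxnb1 (0.46, adjusted p = 0.0138). Plxna2, Plxna4 and Plxnb2 were above background on 0 of 10 arrays. Not every plexin works with a neuropilin, so Plxnc1 and Plxnb1 are given as plexins, not as partners of neuropilin-1. The TGF-beta receptor genes moved in opposite directions, with Tgfbr1 higher (2.06, adjusted p = 9.15e-05) and Tgfbr2 lower in Treg cells (-0.84, adjusted p = 0.00113). Plxnd1 was also higher in Il2ramut/mut than in WT Treg cells, at 8.45 to 8.93 against 7.54 to 7.94 (0.90 ± 0.15, adjusted p = 0.0451), between arrays on which TC0800001594.mm.1 had the same mean to within 0.0029.

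For Cd83, the molecules it keeps at the cell surface were read. Marchf1 was above background on 0 of 10 arrays. Of 13 genes of this pathway and of MHC class II, 4 were higher in WT Treg cells and 0 lower: Cd86 (3.34 ± 0.16, adjusted p = 1.12e-06), Cd80 (2.65 ± 0.13, adjusted p = 1.34e-06), H2-Oa, a chain of the MHC class II chaperone H2-O (2.17, adjusted p = 1.14e-05), and the transcription factor Rfx5 (0.60, adjusted p = 0.00812). The median of the 13 differences was -0.114, against -0.0762 over all probe sets, and 6 were positive. The MHC class II chain genes H2-Aa, H2-Ab1 and H2-Eb1 were not called. Their means were 5.44, 6.49 and 5.42 in WT Treg and 5.58, 6.66 and 5.62 in WT Tconv cells. Cd80 was higher in Il2ramut/mut than in WT Treg cells, with 9.58 to 9.99 against 7.83 to 7.91 (1.86 ± 0.12, adjusted p = 0.000922), while Cd83 on the same arrays differed by 0.053 and Cd86 by 0.05 (adjusted p = 0.954). Cd83 is an NF-kB target, and 13 of 14 NF-kB genes measured were higher in WT Treg cells and 0 lower (median 0.997), among them Tnfaip3 (1.75), Icam1 (1.84), Nfkbia (1.19), Rel (1.13), Traf1 (1.17) and Nfkbiz (1.43), with 0 of 14 called between Treg genotypes. Of 27 early response genes, 15 were higher and 1 lower in Treg than in Tconv cells of WT mice, against 11 and 5 in those of Il2ramut/mut mice, led in WT by Rgs1 (6.82). For the interaction of genotype and cell type, and between Tconv genotypes, 0 of the 27 were called. Dusp1 was at 7.61 to 9.03 on WT and 11.06 to 11.15 on Il2ramut/mut Tconv arrays (2.79, adjusted p = 0.149), and its part in the Cd83 values was not tested.

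Markers of other cell types were read because B cells, dendritic cells and endothelium can carry these genes. Of 7 B cell markers, 2 were higher in WT Treg cells and 0 lower, namely Cd79b (1.43, adjusted p = 0.000509) and Cd22 (1.54, adjusted p = 9.71e-05), and the log2 of their summed level was 8.40 to 8.76 on Treg and 7.81 to 7.90 on Tconv arrays. Cd79a, Ms4a1, Pax5 and Fcer2a were above background on 0 of 10 arrays, while Cd79b was above it on all 10. Over all probe sets 7.89% were called in WT cells, 4.37% as higher in Treg cells, which stands beside each count of markers here. Of 10 dendritic and myeloid markers 0 were higher and 1 lower, with sums of 8.39 to 8.64 on Treg and 8.47 to 8.59 on Tconv arrays. Flt3, Zbtb46, Clec9a, Xcr1 and Csf1r were above background on 0 of 10. Lyz2 and Siglech were above it on all 10, with means of 6.47 and 6.15 in WT Treg and 5.99 and 6.33 in WT Tconv cells. Cd14 and Itgam were above it on every Tconv array and on some Treg arrays. Of 8 stroma and endothelium markers 0 were higher and 1 lower in WT Treg cells, Pecam1 (-1.26, adjusted p = 0.00231), with sums of 10.69 to 11.95 on Treg and 12.47 to 12.98 on Tconv arrays, and Cdh5, Kdr, Lyve1 and Prox1 were above background on 0 of 10. These sums were almost wholly Pecam1, with means of 11.63 (WT Treg), 10.81 (Il2ramut/mut Treg), 12.89 (WT Tconv) and 12.54 (Il2ramut/mut Tconv). They therefore say little about the other markers of the list. Of 2 CD8 markers 0 were called between cell types or genotypes. Cd8a was above background on 0 of 10 arrays. Cd8b1 was above it on all 10, with means of 9.66 (WT Treg), 9.37 (Il2ramut/mut Treg), 10.39 (WT Tconv) and 9.84 (Il2ramut/mut Tconv). All 3 naive T cell markers measured were lower in WT Treg cells, Lef1 (-2.58), Ccr7 (-0.93) and Il7r (-1.09), the Tconv cells having been sorted as naive per the methods.

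The genes whose profile over the 10 arrays was nearest to each of the 4, by the root mean square of the difference after each gene's own mean was subtracted, are given as a description. The measure is dominated by the Treg against Tconv step, which all of them share. Nearest to Gpr83 were Casp4, an inflammatory caspase (0.196, Pearson r = 0.996), Gm3642, Myo3b, Ikzf4 (0.311) and D830030K20Rik. Of these, Gm3642 (-0.94, adjusted p = 0.0119) and D830030K20Rik (-0.90, adjusted p = 0.0161) were called lower in Il2ramut/mut Treg cells. Nearest to Izumo1r were Lilr4b (0.181), Bcl2a1d (0.190), Naip5 (0.275), Cd83 by its second probe set (0.283, r = 0.989) and the receptor tyrosine kinase Axl (0.288). Nearest to TC0800001594.mm.1 were Il2rb, the beta chain of the IL-2 receptor (0.258, r = 0.999), Lrrc32 (0.288), Ctla4 (0.300), Ikzf2 (0.321) and Itgae (0.364). Nearest to Cd83 were Rsph3a (0.093, r = 0.992), Ndfip1 (0.121), the tetraspanin Cd82 (0.142), Slc26a2 (0.152) and Vwa5a (0.161).

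Gpr83 and Izumo1r are immediate neighbours among protein-coding genes on chromosome 9 in the RefSeq gene order, and both were called higher in Treg cells. Of the flanking genes on either side 0 were called in WT cells. Over all probe sets 7.89% were called there, 4.37% as higher in Treg cells, so 0 among a few genes says little. On the Gpr83 side Mre11a differed by 0.08 (adjusted p = 0.745) and Ankrd49 by -0.05 (adjusted p = 0.897), and on the Izumo1r side Panx1 differed by 0.39 (adjusted p = 0.198), each measured on all 10 arrays, while 1700012B09Rik, Hephl1 and Vstm5 were above background on 0 of 10. Beside Nrp1 on chromosome 8, the integrin gene Itgb1 was higher in WT Treg cells (3.59, adjusted p = 5.98e-07), at 11.65 to 12.19 against 8.22 to 8.51, whereas Tomm20 (-0.03, adjusted p = 0.911) and Rbm34 (-0.07, adjusted p = 0.746) were not called and Pard3, Ccdc7a and Ccdc7b were above background on 0 of 10. Beside Cd83 on chromosome 13, Dtnbp1 was higher (0.58, adjusted p = 0.0391), Mylip lower (-0.92, adjusted p = 0.0168), and Ranbp9, Mcur1 and Jarid2 were not called. The neighbours were chosen by gene order after the values of the 4 genes were known, and the distance between genes was not used.

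**Figure D4:**
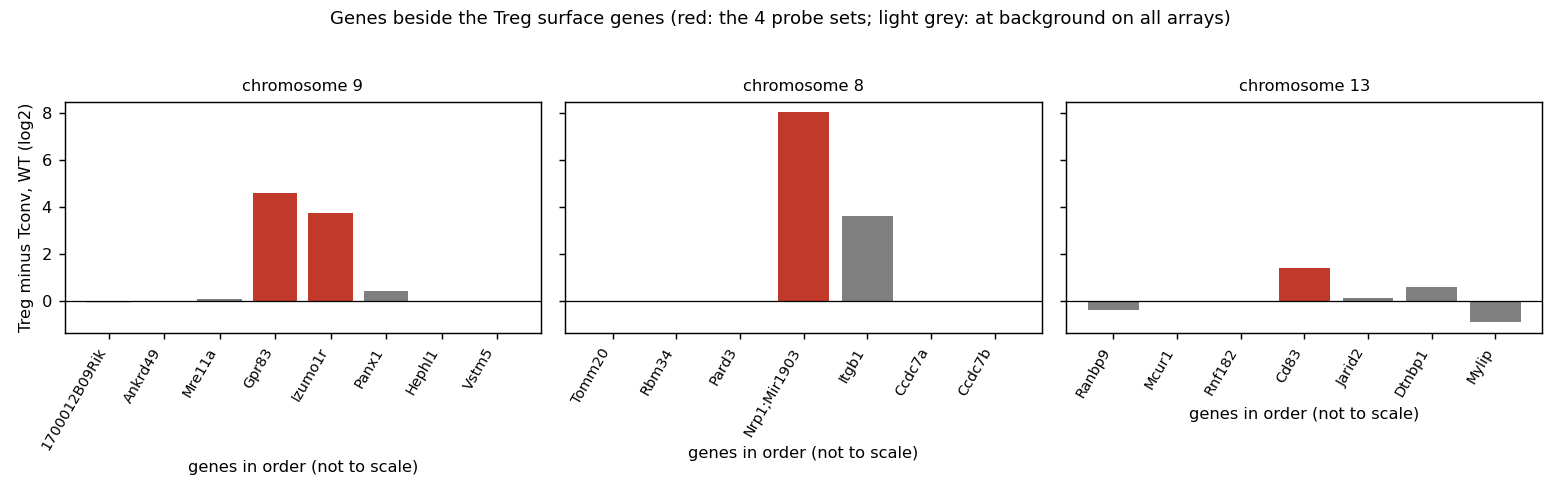
Treg minus Tconv difference in WT cells (log2, y axis) for 3 protein-coding genes on either side of each of the 4 genes, in gene order along chromosomes 9, 8 and 13 (x axis, not to scale), with the 4 probe sets in red, genes above background on at least 1 array in dark grey and genes at background on all 10 in light grey. On chromosome 9 the tall bars are Gpr83 (4.57) and Izumo1r (3.75), on chromosome 8 the probe set of Nrp1 and Mir1903 (8.02) and Itgb1 (3.59).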

How the data were processed

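Groups were taken from the labels. Per the submitters' processing notes, the authors used Affymetrix Expression Console 1.4.1.46 and Transcriptome Analysis Console 3.1.0.5. They deposited normalized log2 signals, 1 for each probe set on each array. Base 2 was taken from the range of values (up to 19.92). The normalization method and the genome build were not given in the sources used here. Of 72688 probe sets, 6732 controls were left out. Of the 65956 tested, 31292 named 1 gene (31290 matched a RefSeq table), 1522 several and 33142 none. A gene was named only where it was the 1 gene listed, and a list gene was read by its probe set of highest mean.

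Limma 3.58.1 in R 4.3.3 fitted 1 mean per group over all 10 arrays (lmFit, contrasts.fit, eBayes defaults, 6 residual and 3.54 prior degrees of freedom), with Benjamini-Hochberg adjustment over all probe sets. The study's methods name a one-way ANOVA, which was run as an alternative and is called the methods' t-test. The fit was tested on simulated data. Other steps used Python 3.11.15. The number of arrays limits the precision. The labels count 2 or 3 mice for a genotype, and each array was taken to be 1 mouse.

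The genes and lists were chosen with earlier results of these data known. Text names all 4 genes, the 5 nearest genes of each, the genes of lowest p (up to 6) of each list in WT cells among those called, every list gene called between genotypes, and ligands and partners.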

Additional observations from a re-analysis of the deposited data

How the results depend on the processing

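The 4 probe sets stayed called between Treg and Tconv cells in both genotypes under every limma alternative that gave a value: fitting only the groups compared, leaving out each array, a replicate block, quantile normalization, only probe sets above background, only probe sets naming 1 gene (which leaves out TC0800001594.mm.1), a trended robust prior and, for Cd83, the second probe set. The methods' t-test with the same Benjamini-Hochberg threshold, which the methods do not use, lost 3 of these calls: Gpr83 in Il2ramut/mut (4.12, adjusted p = 0.0566) and Cd83 in WT (1.38, 0.064) and Il2ramut/mut cells (1.53, 0.132). All 3 met the methods' own criterion, 1.5-fold and an unadjusted p of at most 0.01 (0.00105, 0.000984 and 0.00898). The t-test could not be fitted for the interaction, nor could the fit of only the groups compared. Over all alternatives, 239 of 256 values for the 4 probe sets kept direction and side of the threshold, and 1278 of 1480 list counts stayed within 1.5 times.

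Small genotype differences changed sign. Quantile normalization gave 0.025 for Izumo1r in Tconv cells and 0.12 for TC0800001594.mm.1 in Treg cells. Leaving out 1 array at a time gave, in Tconv cells, -0.52 to 0.34 for Gpr83, -0.28 to 0.25 for Izumo1r, -0.0014 to 0.38 for TC0800001594.mm.1 and -0.35 to 0.16 for Cd83, in Treg cells -0.064 to 0.061 for TC0800001594.mm.1 and -0.042 to 0.18 for Cd83, and for the interaction of Cd83 -0.10 to 0.41. The Treg difference of Gpr83 stayed between -0.57 and -0.51 and that of Izumo1r between -0.41 and -0.24, at -0.19 with quantile normalization. The cause was not tested.

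Counts of probe sets called were 647 and 992 with the methods' t-test for Treg against Tconv in WT and Il2ramut/mut cells after Benjamini-Hochberg (5206 and 7483 in the main analysis; 2476 and 3149 by the methods' own criterion), and for Il2ramut/mut 4733 on probe sets naming 1 gene and 4982 to 6381 without 1 array. Between Treg genotypes, 246 became 132 with only the groups compared, 127 with a replicate block, 0 with the methods' t-test after Benjamini-Hochberg (386 by the methods' own criterion) and 38 to 166 without 1 array. Between Tconv genotypes, 2 became 1 with only the groups compared, 0 with a replicate block, with probe sets naming 1 gene and with the methods' t-test after Benjamini-Hochberg (69 by its own criterion), and 0 to 4 without 1 array. The interaction gave 5 on probe sets naming 1 gene and 1 to 3 without 1 array. Deviations from the group mean had r from -0.143 to 0.124 between arrays with the same number. Arrays with different numbers were not compared, so this cannot show whether arrays of 1 number share a mouse. The labels do not say, and the numbers were not taken as pairs. The replicate block changed no call of the 4 probe sets. A crossed block in Tconv cells, chosen after seeing the data, called 0.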
